A study of Mus musculus with 9 samples.

Results

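The plasminogen activator genes and the serpins grouped with them were followed through an array study of mouse aortic valve. The group holds 6 genes, chosen by symbol: Plau, Plat, Plaur, Serpine2, Serpinb2 and Serpinf1. A probe set, the set of array probes summarised to 1 value for a transcript, was taken where the platform annotation gave it a single symbol among these names. On that basis 5 of the 6 genes had 1 probe set each, out of 19934 genes measured in the same way, and Serpine2 is not analysed here. The samples were aortic valves of C57BL/6J pups at postnatal day 1, pooled from 5 to 6 pups per sample and kept as explants on floating filters for 48 hours. ATRA, all-trans retinoic acid at 1 µmol/L in DMSO, was given to the valves of 3 arrays, and 3 more had LE540, an antagonist of retinoic acid receptors, while 3 had DMSO alone at 0.001%. For LE540 no dose or vehicle is stated in the labels, and the pups' sex is not stated. All groups shared the strain, the age and the culture medium with 10% serum, so there was no uncultured valve among them. The labels call the pools biological replicates.

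Plasminogen activators are serine proteases that cut plasminogen, a circulating proenzyme, into plasmin. Plasmin digests fibrin, opens up extracellular matrix directly and through matrix metalloproteinases, and frees growth factors bound there. Plau encodes the urokinase type, which works at the cell surface bound to the receptor encoded by Plaur, and Plat encodes the tissue type, which binds fibrin and is a typical product of endothelium. Serpins are a protease inhibitor family. Serpinb2 encodes an inhibitor of both activators that is largely kept inside cells, and Serpine2 encodes protease nexin-1, which blocks urokinase, plasmin and thrombin. Serpinf1 encodes pigment epithelium-derived factor, a secreted serpin that does not inhibit proteases and is known for blocking vessel growth, so it belongs to the group by family and not by activity.

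The values are intensities on a linear scale after RMA, with array medians of 134 to 139 and lower quartiles of 64.5 to 69.1 over the 23397 probe sets with a listed gene. All 12 valve mesenchyme markers lay above the median, and their summed intensity was 28379.6 to 32098 in ATRA arrays, 15655 to 25003 in LE540 arrays and 21553 to 27700.5 in DMSO arrays. LE540 replicate 1 had the lowest of these sums and correlated least with the other arrays (r = 0.956 to 0.969 over all probe sets, a description with no test). The explants also held signal of other cells. Of 10 endothelial markers 5 lay above the median, of 11 macrophage markers 6, and of 11 cardiomyocyte markers 10. No marker was at 0 on any array, but a microarray intensity has no true zero. In tissue pools such as these, fewer cells of a type and less RNA per cell cannot be told apart.

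Plau and Plat averaged highest with ATRA and lowest with LE540, and Serpinf1 lay above every DMSO array with either compound. No member passed in any comparison in limma, a linear-model test fitted here across all 23397 probe sets with a threshold of 0.1 on the Benjamini-Hochberg adjusted p. In ATRA vs DMSO 0 of 5 members passed, where 0.0812% of all probe sets did (0.0598% with over 2-fold change). In LE540 vs DMSO it was 0 of 5, where 0.0299% did, all over 2-fold, and in ATRA vs LE540 0 of 5, where 0.603% did (0.419% over 2-fold). At an unadjusted p under 0.05, 2 of 5 members were found in each comparison, against backgrounds of 4.7%, 8.8% and 9.54%. In a single test of any difference among the 3 groups, 0.286% of probe sets passed, and the adjusted p of the members ran from 0.11 for Serpinf1 to 0.793 for Plaur. The median log2 change of the 5 members was 0.42 in ATRA vs DMSO, 0.28 in LE540 vs DMSO and 0.28 in ATRA vs LE540, beside medians over all genes of -0.01, 0.02 and -0.03. The first 2 of these comparisons share the DMSO arrays.

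**Figure D1:**
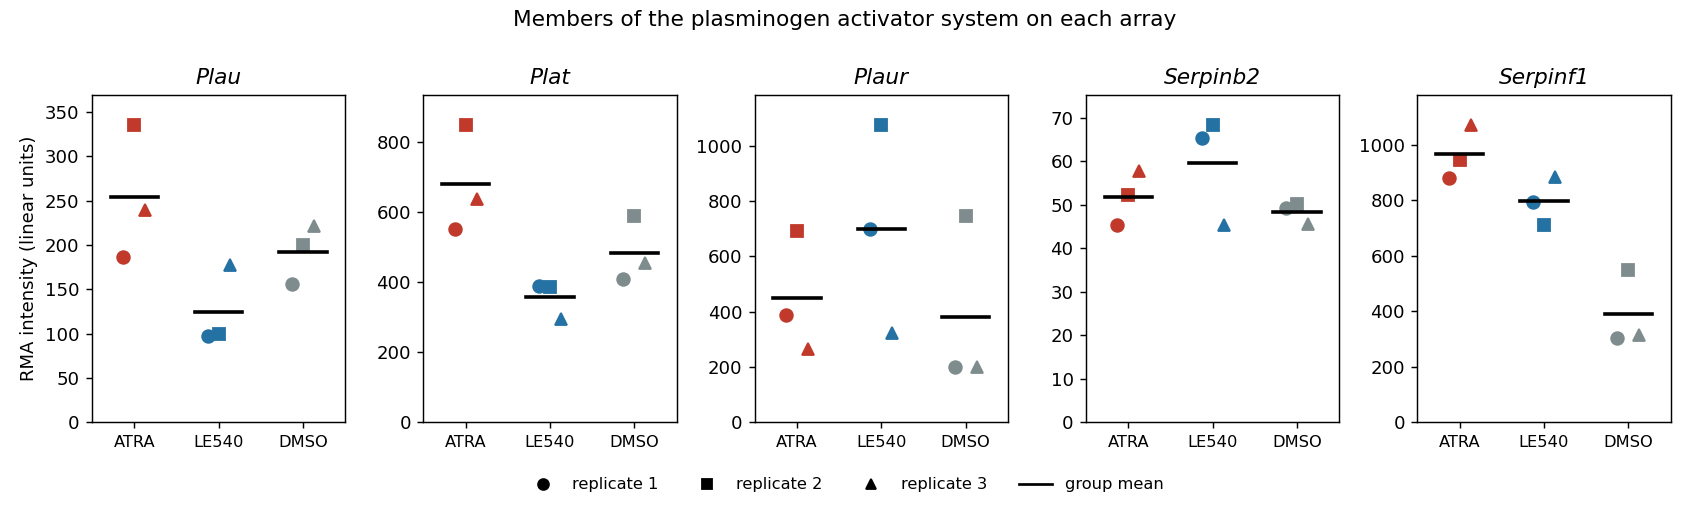
RMA intensity (linear units, axis from 0) of each measured member on each of the 9 arrays, with ATRA and LE540 left of DMSO; point shapes give the replicate number and the bar is the mean of 3 arrays. For Serpinf1 the ATRA and LE540 arrays lie above all DMSO arrays (highest 548), for Plau and Plat every ATRA array lies above every LE540 array, and for Plaur replicate 2 is the highest array of each group.

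Both activator genes had their highest group mean with ATRA and their lowest with LE540. Plau (probe set 10413047) read 186, 335 and 239.5 in ATRA arrays, 97.8, 99.4 and 178 in LE540 arrays, and 157, 199 and 221 in DMSO arrays. All ATRA arrays lay above all LE540 arrays, whereas both groups overlapped with DMSO. The means were 254 ± 75.5 with ATRA, 125 ± 45.7 with LE540 and 192 ± 32.9 with DMSO (SD, n = 3 each). The log2 change was 0.37 in ATRA vs DMSO (SE 0.28, adjusted p = 0.999 in limma), -0.67 in LE540 vs DMSO (SE 0.28, adjusted p = 0.559) and 1.04 in ATRA vs LE540 (SE 0.28, adjusted p = 0.258). The direct difference between ATRA and LE540 was 2.05-fold with a 95% confidence interval of 0.39 to 1.68 on the log2 scale. Without LE540 replicate 1, the array least like the others, that change was 0.89.

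Plat (probe set 10570855), the tissue-type activator, read 552, 848 and 636 in ATRA arrays, 387, 386 and 296 in LE540 arrays, and 408, 588 and 454 in DMSO arrays. LE540 arrays were below every ATRA array and every DMSO array, and ATRA replicate 1 lay within the DMSO range. The means were 678 ± 153 with ATRA, 356 ± 52.5 with LE540 and 483 ± 93.5 with DMSO (SD, n = 3 each). Plat changed by 0.48 log2 in ATRA vs DMSO (SE 0.20, adjusted p = 0.999 in limma) and by -0.43 in LE540 vs DMSO (SE 0.20, adjusted p = 0.573). In ATRA vs LE540 the change was 0.92 (SE 0.20, 95% confidence interval 0.46 to 1.37), a 1.89-fold difference with an adjusted p of 0.154. With the replicate number as a block Plat passed in that comparison (adjusted p = 0.0729 in limma), the only member to do so among the 5, where 0.945% of all probe sets passed. Without LE540 replicate 1 the change was 0.98 (adjusted p = 0.3, no block).

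Replicate numbers showed the same order for both activators. The ATRA array was above the DMSO array of the same number in 3 of 3 pairs for Plau (log2 differences 0.25, 0.75 and 0.11) and in 3 of 3 pairs for Plat (0.44, 0.53 and 0.49). The LE540 array was below its DMSO array in 3 of 3 pairs for Plau (-0.68, -1.005 and -0.32) and for Plat (-0.07, -0.61 and -0.62). For Plat any matching of arrays would give this, as all LE540 arrays lay below all DMSO arrays. Each number thus had the order ATRA, DMSO, LE540 from high to low. The sizes varied severalfold between numbers, except for Plat in ATRA vs DMSO. No label pairs arrays of equal number, and deviations from group means of LE540 and DMSO replicate 1 correlated at only r = 0.00946. Both activators counted among the probe sets whose ATRA arrays all lay above the LE540 arrays, 2 of 5 members against 5.24% of all probe sets, and 0 of 5 members lay wholly below, against 6.24%.

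**Figure D2:**
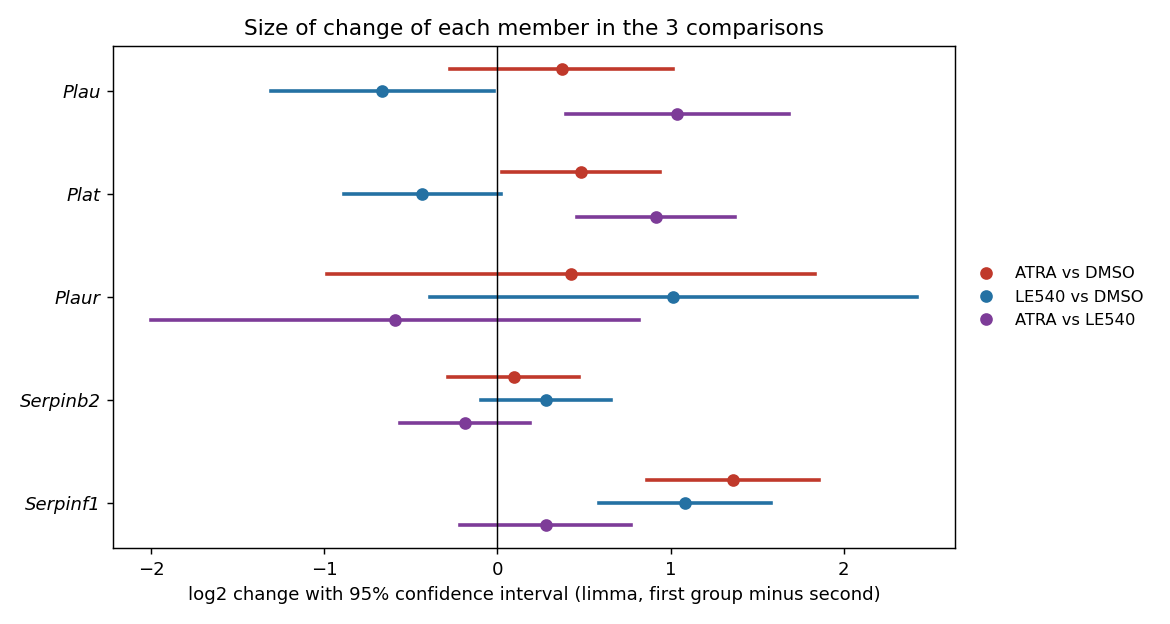
Log2 change of each measured member (points) with its 95% confidence interval from the limma fit (lines), first group minus second, for the 3 comparisons. The intervals of Plaur reach from -1.999 to 2.42, whereas those of Serpinf1 against DMSO lie above 0 (0.87 to 1.86 for ATRA, 0.59 to 1.58 for LE540).

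Plaur (probe set 10550906), the urokinase receptor gene, varied more within groups than between them. It read 387, 693 and 265 in ATRA arrays, 700.3, 1076 and 323 in LE540 arrays, and 199, 745 and 199 in DMSO arrays. Replicate 2 was the highest array in every group, and the 3 groups overlapped. The residual SD of Plaur, 0.91 log2, was higher than that of 99.3% of the tested probe sets, beside 0.40 for Plau, 0.27 for Plat, 0.22 for Serpinb2 and 0.30 for Serpinf1. The means were 449 ± 221 with ATRA, 699.7 ± 376 with LE540 and 381 ± 316 with DMSO (SD, n = 3 each). Its log2 change was 1.02 in LE540 vs DMSO (SE 0.62, 95% confidence interval -0.39 to 2.42, adjusted p = 0.642 in limma) and 0.42 in ATRA vs DMSO (interval -0.98 to 1.83, adjusted p = 0.999). In ATRA vs LE540 it was -0.59 (interval -1.999 to 0.82, adjusted p = 0.807). Single arrays moved these values by over 1.5 times. The LE540 vs DMSO change was 1.65 without DMSO replicate 2 and 0.62 without LE540 replicate 2. The ATRA vs DMSO change was 1.06 without DMSO replicate 2, 0.75 without ATRA replicate 3, 0.11 without DMSO replicate 1 or 3 and 0.053 without ATRA replicate 2. In ATRA vs LE540 it was -1.07 without LE540 replicate 3, -0.96 without ATRA replicate 2, -0.27 without ATRA replicate 3 and -0.20 without LE540 replicate 2. Against the DMSO array of its own number, Plaur was higher in 3 of 3 LE540 arrays (log2 differences 1.82, 0.53 and 0.70) and in 2 of 3 ATRA arrays (0.96, -0.10 and 0.41).

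Endothelial markers followed the replicate numbers as well. Their summed intensity was 2052, 5457 and 2169.9 in ATRA arrays 1 to 3, 1384, 3075 and 1809.9 in LE540 arrays and 1319.99, 2978 and 1648 in DMSO arrays. Replicate 2 was thus the highest array of its group for this list, for Plaur, and, in ATRA and DMSO arrays, for Plat. ATRA replicate 2 had the highest marker sum of the 9 arrays and also the highest Plat and Plau values. Among LE540 arrays replicate 2 had the highest marker sum, and its Plat (386) and Plau (99.4) values lay between those of the other LE540 arrays. Macrophages are a second cell type known to express urokinase and its receptor. Their markers summed to 2128, 4583 and 4600.2 in ATRA arrays 1 to 3, 3359.55, 3610 and 4719 in LE540 arrays and 4102, 2592 and 5464 in DMSO arrays. For the macrophage list replicate 2 was the middle array with ATRA and with LE540 and the lowest with DMSO. Its Plaur value was the highest of each group. Smooth muscle markers, 4 of 6 above the array median, summed to 3436 to 7040.3 in ATRA arrays, 1819.7 to 2938 in LE540 arrays and 1897 to 3703 in DMSO arrays. Mesothelial and epithelial markers, 2 of 9 above the median, summed to 1208 to 1258 in ATRA arrays, 885 to 1009 in LE540 arrays and 897 to 1151 in DMSO arrays. For these 2 lists, as for the mesenchyme list and for Plau and Plat, all ATRA arrays lay above all LE540 arrays. Like Plat, the mesothelial and epithelial sum was highest in replicate 2 with ATRA (1258) and DMSO (1151), but not with LE540 (923). Cardiomyocyte sums of replicate 2 were the highest with ATRA (20280) and the lowest with DMSO (12175). Mesenchyme sums of replicate 2 were the lowest with ATRA (28379.6) and with DMSO (21553). The part of these cell types in the values of Plaur, Plat and Plau was not tested.

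**Figure D3:**
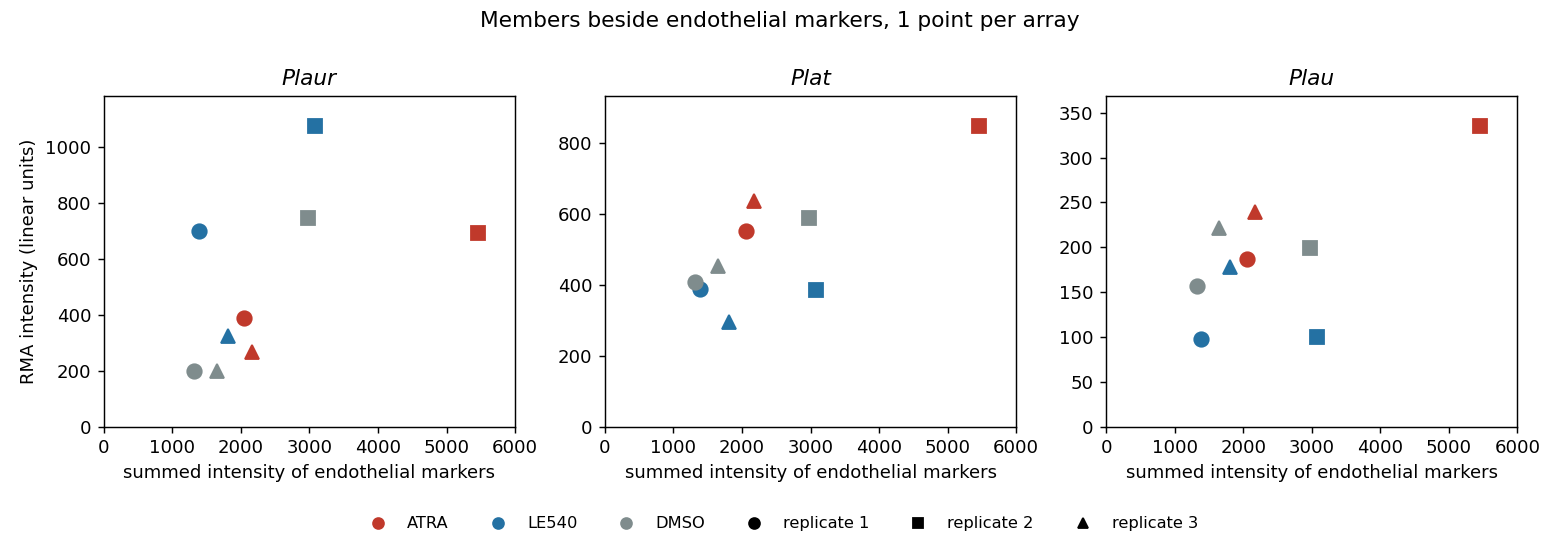
RMA intensity of Plaur, Plat and Plau (y axes, linear units from 0) against the summed intensity of 10 endothelial markers (x axis, linear units from 0) on the 9 arrays; colours give ATRA, LE540 and DMSO, and shapes the replicate number. The square symbols of replicate 2 lie farthest right within each group (5457 with ATRA, 3075 with LE540 and 2978 with DMSO). Plat read 848, 386 and 588 on these arrays.

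The promoter of Plaur is shown because the gene varied so widely between pools. RefSeq places its window, 250 bases before to 50 bases after the annotated start, at chr7:24462233-24462532 on the plus strand of GRCm38.p6. The window was searched on both strands for TGANTCA, the core of an AP-1 site, a motif linked to induction of the human urokinase receptor gene. Capitals mark the match, which begins 69 bases before the start.
Plaur: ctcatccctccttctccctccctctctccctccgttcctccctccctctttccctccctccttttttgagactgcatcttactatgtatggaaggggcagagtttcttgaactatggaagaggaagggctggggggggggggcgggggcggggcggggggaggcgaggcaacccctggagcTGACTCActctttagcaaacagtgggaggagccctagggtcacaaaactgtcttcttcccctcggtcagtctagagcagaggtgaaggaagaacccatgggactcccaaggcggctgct
Of all 32851 promoter windows in the table, 7.81% held TGANTCA, as did both windows of Serpinb2. A match describes the letters only, and no binding was measured.

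Of the serpins, Serpinb2 gave a dim signal. Probe set 10349157 read 45.25, 52.3 and 57.8 in ATRA arrays, 65.2, 68.3 and 45.3 in LE540 arrays, and 49.3, 50.05 and 45.6 in DMSO arrays. Its values were at or below the lower quartile of the array on 8 of 9 arrays, where signal over background is unknown. Groups overlapped, although 2 LE540 arrays lay above all others. The means were 51.8 ± 6.28 with ATRA, 59.6 ± 12.5 with LE540 and 48.3 ± 2.36 with DMSO (SD, n = 3 each). Log2 changes of 0.09 in ATRA vs DMSO (95% confidence interval -0.28 to 0.47, adjusted p = 0.999 in limma), 0.28 in LE540 vs DMSO (-0.10 to 0.66, adjusted p = 0.636) and -0.19 in ATRA vs LE540 (-0.57 to 0.19, adjusted p = 0.769) keep differences in intensity under 2-fold within these intervals. At so low a signal this does not bound a change in the transcript. Serpinb7 and Serpinb10, the genes on either side of Serpinb2 in the RefSeq order, were at -0.12 and -0.09 log2 in ATRA vs DMSO and at -0.14 and 0.07 in LE540 vs DMSO.

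Serpinf1 (probe set 10388430) stood farthest from DMSO among the members. It read 879, 946 and 1072 in ATRA arrays, 795, 711 and 886 in LE540 arrays, and 303, 548 and 316 in DMSO arrays. All arrays of both compounds lay above all DMSO arrays, and the ATRA and LE540 ranges overlapped. The means were 966 ± 97.9 with ATRA, 797 ± 87.5 with LE540 and 389 ± 137 with DMSO (SD, n = 3 each). Serpinf1 did not pass in ATRA vs DMSO, at 2.57-fold (log2 change 1.36, SE 0.22, adjusted p = 0.146 in limma), where its unadjusted p ranked 27 among 23397 probe sets and the size of its change ranked 56. It did not pass in LE540 vs DMSO either, at 2.12-fold (log2 change 1.08, SE 0.22, adjusted p = 0.293), with ranks of 67 and 203. Both comparisons use the same DMSO arrays. The difference between the compounds was 0.28 (SE 0.22, 95% confidence interval -0.22 to 0.77, adjusted p = 0.74).

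The lack of overlap with DMSO in the higher direction held for 1 of 5 members in each comparison, against 4.97% of all probe sets for ATRA and 6.74% for LE540. In the lower direction it held for 1 of 5 members with LE540, Plat, against 5.86%, and for 0 of 5 with ATRA, against 6.34%. DMSO replicate 2 was the DMSO array closest to the treated ones for Serpinf1, and the same-number log2 differences were smallest there, at 0.79 for ATRA against 1.54 and 1.76 for the other numbers, and at 0.38 for LE540 against 1.39 and 1.49. Without DMSO replicate 2 Serpinf1 passed in ATRA vs DMSO (log2 change 1.64, adjusted p = 0.0211 in limma), and it passed with array weights (1.50, adjusted p = 0.0341). In the other direction, its adjusted p in that comparison was 0.669 without DMSO replicate 1, 0.537 without DMSO replicate 3, 0.329 with the 6 ATRA and DMSO arrays alone and 0.21 with the replicate number as a block. Without LE540 replicate 1 the LE540 vs DMSO change of Serpinf1 was 1.08 (adjusted p = 0.642). Serpinf2, which encodes the main plasma inhibitor of plasmin and neighbours Serpinf1 in the genome, was at 0.04 log2 in ATRA vs DMSO and at 0.17 in LE540 vs DMSO.

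The Serpinf1 promoter is shown because this member differed most from DMSO and retinoic acid receptors bind repeats of the half-site AGGTCA. Its RefSeq window lies at chr11:75422574-75422873 on the minus strand of GRCm38.p6. Capitals mark AGGTCA on either strand, with the first match 209 bases before the annotated start and the second from 2 bases before it.
Serpinf1: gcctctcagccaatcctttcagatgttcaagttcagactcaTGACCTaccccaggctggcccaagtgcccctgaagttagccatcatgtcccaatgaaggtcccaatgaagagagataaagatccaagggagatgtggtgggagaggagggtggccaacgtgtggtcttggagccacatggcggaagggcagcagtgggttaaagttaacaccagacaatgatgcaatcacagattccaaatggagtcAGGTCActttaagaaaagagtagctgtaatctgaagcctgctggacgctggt
The single half-site occurs in 16.3% of the 32851 windows. Direct repeats of AGGTCA with 2 or 5 bases between the copies, spacings that retinoic acid receptors favour, were searched on both strands, were not found in the windows of Serpinf1, Plaur or Serpinb2 and occur in 0.00913% of all windows each. No match says only that these letters are not in this window.

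Genes with the most similar profile over the 9 arrays were sought for each member among 9532 genes, with Pearson's r of log2 values as the measure of likeness and no test. Plau was closest to Lima1, an actin-binding protein (r = 0.96), Tjp1, a tight junction scaffold (0.96), and Frzb, a secreted Wnt antagonist (0.95), and Frzb averaged 910.3 with ATRA, 342 with LE540 and 548 with DMSO. Plat was closest to Uaca (0.96), which averaged 667 with ATRA, 319 with LE540 and 451 with DMSO, followed by the chloride channel gene Ano1 (0.92) and Ece1, which encodes an endothelin-converting enzyme (0.92). These genes were picked for the likeness itself, so the order of their group means is no separate result. Plaur was closest to Bcdin3d (0.95), the chaperonin subunit gene Cct3 (0.94) and Cnbp (0.94), and Serpinb2 to Eola1, the respiratory complex III gene Uqcrc1 and Gtf3c4 (each 0.95). Serpinf1 had the weakest likeness, to Rxylt1, Dbn1 and Bin1 (each 0.87). Between the members themselves r was highest for Plau and Plat (0.72) and lowest for Plau and Serpinb2 (-0.59), with 9 arrays in 3 groups behind each value.

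Around the members, plasminogen, its receptors and the receptors that take up activator complexes gave 0 passing genes of 16 in each comparison. At an unadjusted p under 0.05 in limma there were 1 in ATRA vs DMSO, 5 in LE540 vs DMSO and 5 between ATRA and LE540. The shares of all probe sets were 4.7%, 8.8% and 9.54%. Against DMSO, 5 of the 16 genes were higher with ATRA and 4 of 16 with LE540, where 48.1% and 54.0% of all genes were higher. The median log2 changes were -0.05 and -0.17 beside -0.01 and 0.02 over all genes. Plg, which encodes plasminogen and is made mainly in liver, was at -0.05 with ATRA and 0.17 with LE540, and Anxa2, which encodes a plasminogen-binding annexin, at -0.11 and -0.12. Mrc2, which encodes a collagen receptor that partners with the urokinase receptor, averaged 637 ± 107 with ATRA, 366 ± 145 with LE540 and 651 ± 91.5 with DMSO (LE540 vs DMSO log2 change -0.91, SE 0.29, adjusted p = 0.529). Vldlr, which encodes a receptor that clears activator and serpin complexes, averaged 288 ± 40.2 with ATRA, 677 ± 280.3 with LE540 and 306 ± 49.99 with DMSO (LE540 vs DMSO 1.07, SE 0.29, adjusted p = 0.437, or 0.0861 without LE540 replicate 2). Lrpap1, a chaperone of these receptors, was at -0.55 in ATRA vs DMSO (SE 0.23, adjusted p = 0.999), and Itgav, the alpha-v integrin subunit, at -0.37 (SE 0.25).

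Among 11 other inhibitors of plasmin or its activators 0 passed in each comparison. At an unadjusted p under 0.05 in limma there were 2, 1 and 1, against 4.7%, 8.8% and 9.54% of all probe sets. The medians were 0.08 in ATRA vs DMSO, 0.14 in LE540 vs DMSO and -0.06 in ATRA vs LE540. Serping1, which encodes the C1 inhibitor, a serpin of the complement and contact systems that can also bind plasmin, read 645, 549.99 and 1311 in ATRA arrays, 159.98, 209.7 and 393 in LE540 arrays, and 336, 182 and 501 in DMSO arrays. Each ATRA array was above every array of the other groups, which overlapped. Serping1 differed by 1.71 log2 in ATRA vs LE540 (SE 0.47, adjusted p = 0.264), and passed there with the replicate number as a block (adjusted p = 0.042); in ATRA vs DMSO it was at 1.31 (SE 0.47, adjusted p = 0.985). Serpinb6a was at 0.69 in LE540 vs DMSO (SE 0.24, adjusted p = 0.541) and at 0.19 in ATRA vs DMSO, and Serpini1, the gene of neuroserpin, a tissue-type activator inhibitor, at -0.18 and -0.33.

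The 23 other serpins likewise gave 0 passing genes in each comparison. At an unadjusted p under 0.05 in limma there were 2, 0 and 2, against 4.7%, 8.8% and 9.54% of all probe sets. In LE540 vs DMSO 20 of the 23 serpins were higher, at a median of only 0.11, where 54.0% of all genes were higher. In ATRA vs DMSO 15 of 23 were higher, at a median of 0.05, where 48.1% of all genes were. Serpinb1a, an inhibitor of neutrophil proteases, read 133, 337 and 144 in ATRA arrays, 90.4, 75.3 and 55.2 in LE540 arrays, and 70.8, 93.8 and 54.8 in DMSO arrays. All ATRA arrays were above the rest, with a log2 change of 1.38 in ATRA vs DMSO (SE 0.36, adjusted p = 0.689) and 1.37 in ATRA vs LE540 (SE 0.36, adjusted p = 0.248). Serpinb9b was at 1.08 in ATRA vs DMSO (SE 0.55), or 0.41 without ATRA replicate 3 and 1.66 without ATRA replicate 2, and Serpina3n, an acute-phase serpin, at 0.60 in ATRA vs DMSO and 0.58 in LE540 vs DMSO (SE 0.30 each), without passing.

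Of the plasmin substrates and proteases acting downstream of plasmin, 3 of 29 passed as higher in ATRA vs LE540. In that comparison 0 passed as lower and 26 did not pass, and 0.41% of all probe sets passed as higher. By direction alone 22 of 29 were higher there (median 0.20), beside 43.7% of all genes. In ATRA vs DMSO 0 of 29 passed, with 22 of 29 higher (median 0.20), beside 48.1% of all genes. In LE540 vs DMSO 0 of 29 passed, with 10 of 29 higher (median -0.11), beside 54.0% of all genes. At an unadjusted p under 0.05 in limma there were 4 and 8, against 4.7% and 8.8% of all probe sets. The median in ATRA vs DMSO was 0.069 without ATRA replicate 1 and 0.095 without DMSO replicate 2. In LE540 vs DMSO it was -0.031 without DMSO replicate 1, -0.16 without DMSO replicate 2 and -0.011 without LE540 replicate 2. With the replicate number as a block 4 of 29 passed in ATRA vs LE540, where 0.945% of all probe sets did. The additional gene was Thbs1, which encodes the matrix glycoprotein thrombospondin-1 (log2 change 1.31, adjusted p = 0.264 in limma, or 0.0833 with the block). Mmp3, a matrix metalloproteinase gene, had the largest change of the list in ATRA vs DMSO, at 2.36 log2. Mmp3 was at 2.12 in ATRA vs LE540 and at 0.24 in LE540 vs DMSO, and did not pass in any comparison. In ATRA vs DMSO the lowest adjusted p of the whole list was 0.69 in limma. Tgfb3, a transforming growth factor beta ligand, read 554, 475 and 448 in ATRA arrays, 84.3, 149 and 128 in LE540 arrays, and 306, 299.9 and 276 in DMSO arrays. The 3 groups did not overlap, and the ATRA vs LE540 change was 2.07 log2 (SE 0.20, adjusted p = 0.00791), or 1.83 without LE540 replicate 1 (adjusted p = 0.00682). In LE540 vs DMSO Tgfb3 was at -1.33 (adjusted p = 0.155), and passed there without LE540 replicate 2 (0.0426) or LE540 replicate 3 (0.0747).

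Hgf, which encodes hepatocyte growth factor, a protein activated by cleavage that urokinase can perform, read 304, 644 and 338 in ATRA arrays, 50.9, 113 and 117 in LE540 arrays, and 197, 204 and 198 in DMSO arrays. These groups were likewise apart (ATRA vs LE540 log2 change 2.21, SE 0.36, adjusted p = 0.0589). Hgf no longer passed without DMSO replicate 1, 2 or 3, ATRA replicate 1 or 3, or LE540 replicate 1 (adjusted p = 0.101 to 0.145) and with the 6 ATRA and LE540 arrays alone (0.255). Fgf2, a growth factor held in matrix, read 674, 869.5 and 900.3 in ATRA arrays, 260.1, 367 and 346 in LE540 arrays, and 586, 823 and 586 in DMSO arrays, with LE540 below the overlapping ATRA and DMSO arrays (ATRA vs LE540 log2 change 1.33, SE 0.19, adjusted p = 0.0402). Fgf2 no longer passed when ATRA replicate 3 was left out (adjusted p = 0.14), without LE540 replicate 1 (0.101) and with the 6 arrays alone (0.126).

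Of 23 coagulation starters and related trypsin-like proteases, 1 passed as higher in ATRA vs LE540, where 0.41% of all probe sets did, and 22 did not pass. In either comparison with DMSO 0 passed. At an unadjusted p under 0.05 in limma there were 3 with ATRA and 4 with LE540, against 4.7% and 8.8% of all probe sets. The gene that passed was Htra1, a secreted serine protease of the matrix. Htra1 read 2429, 2550.4 and 2839 in ATRA arrays, 739, 1171 and 997 in LE540 arrays, and 1723, 1524.5 and 1735 in DMSO arrays, so that the 3 groups did not overlap (ATRA vs LE540 log2 change 1.45, SE 0.16, adjusted p = 0.015, or 0.111 with the 6 arrays alone). Against DMSO, Htra1 passed with array weights in the ATRA comparison (adjusted p = 0.0893) and without LE540 replicate 2 in the LE540 comparison (0.0876). The medians of the list were 0.09 in ATRA vs DMSO, 0.05 in LE540 vs DMSO and 0.04 in ATRA vs LE540.

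**Figure D4:**
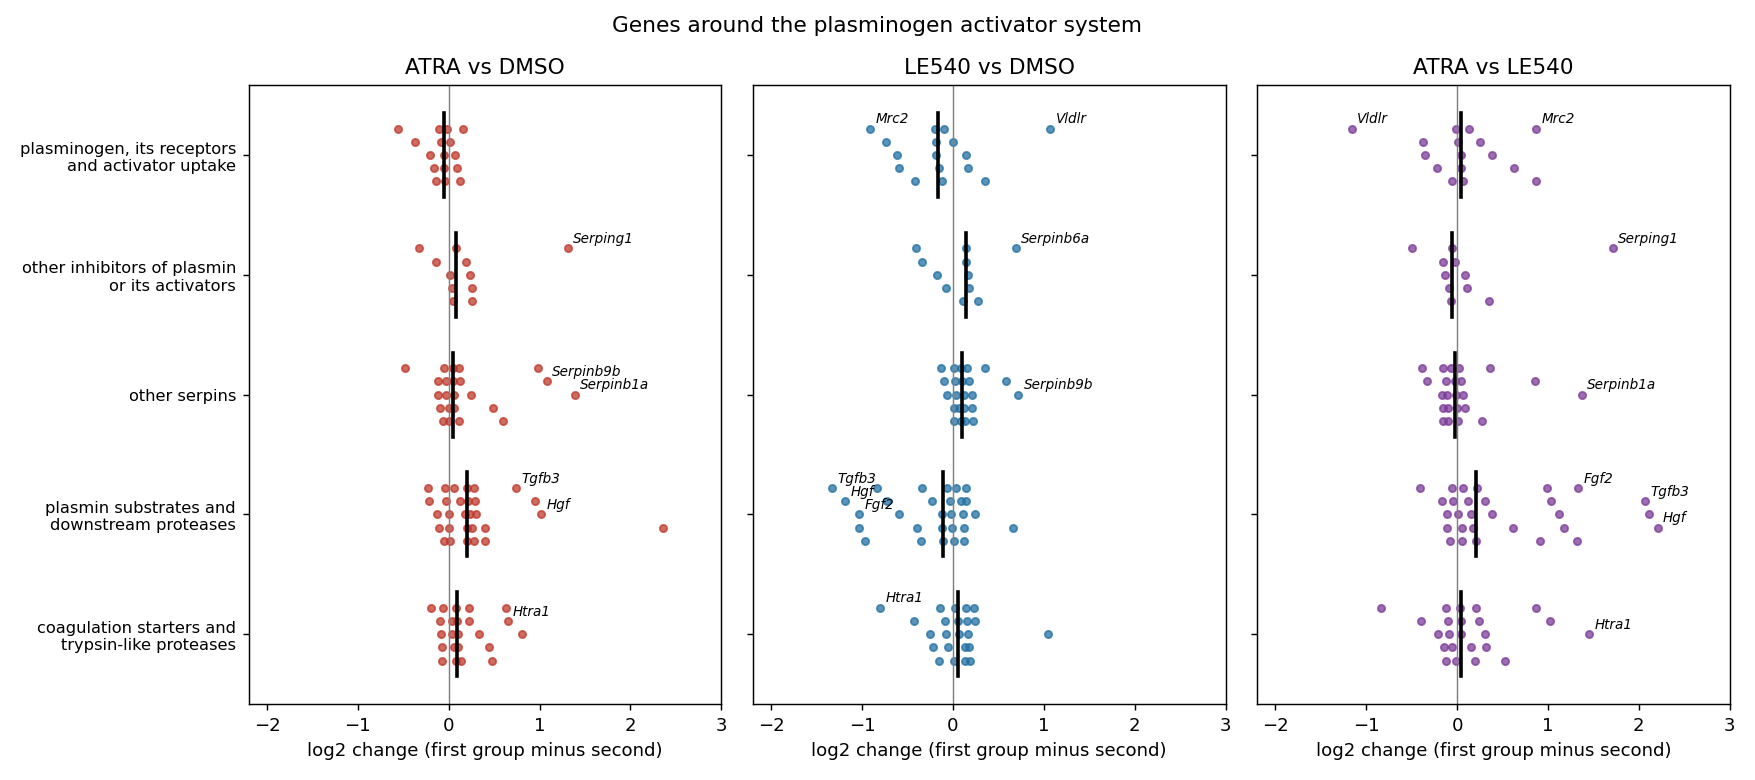
Log2 change of every measured gene of the 5 lists around the members (points; vertical spread within a list has no meaning) in the 3 comparisons, first group minus second, with the list median as a black line. Labels name genes picked by the naming rule that changed by at least 0.6; Tgfb3 and Hgf lie right of 0 in ATRA vs DMSO (0.74 and 1.02) and left of 0 in LE540 vs DMSO (-1.33 and -1.19).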

How the data were processed

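The authors deposited 1 intensity for each probe set on each array. Per the submitters' processing notes, Affymetrix Expression Console 1.1 and RMA made them; annotation and build are not given in the sources used here. Intensities ran from 4.09 to 17798 on a linear scale, so log2 was taken first. Of 28270 rows, 23397 had a listed gene symbol and were tested. limma 3.58.1 in R 4.3.3 fitted 3 group means over 9 arrays (two-sided, Benjamini-Hochberg, threshold 0.1 from the design text; 6 residual and 2.72 prior degrees of freedom). SD is over 3 arrays, SE is that of the fit. The number of arrays limits the precision, and arrays have no depth in counts. The fit was also run on simulated arrays with independent normal errors and known changes. These hold no shared replicate effect or odd array, so they do not check the fit against either.

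Members and lists were chosen with earlier results of these data known. Named genes are all members, the passing genes of a list (at most 4) or, with none, the 2 that differed most from DMSO per compound, and the 3 genes most like each member (mean log2 at or above the median, predicted genes left out). Lists use the brightest probe set of a gene. Plg, Anxa2, Thbs1, Mmp3, Serpinf2, Serpinb7 and Serpinb10 were named after their values were seen. Of the lists, 10 genes were not analysed here.

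No label says that equal replicate numbers mark shared litters or days. Deviations from group means of equal numbers correlated at r = 0.143, 0.342 and 0.22 for ATRA and DMSO, at 0.261, 0.282 and 0.269 for ATRA and LE540, and at 0.00946, 0.215 and 0.126 for LE540 and DMSO, so the block is given for the first and second of these. Alternatives covered normalization, filters, the prior, weights, the block and each array left out. Promoter sequences are from RefSeq, GRCm38.p6, for 3 of the 5 measured members.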

Additional observations from a re-analysis of the deposited data

Results flagged for a closer look

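The effects of the 2 compounds differed, by the direct ATRA vs LE540 test in limma, for 4 of the named genes around the activators and for none of the 5 members (lowest adjusted p = 0.154, Plat). The genes were Hgf (log2 change 2.21, adjusted p = 0.0589), Tgfb3 (2.07, adjusted p = 0.00791), Fgf2 (1.33, adjusted p = 0.0402) and Htra1 (1.45, adjusted p = 0.015). Each was higher in 3 of 3 ATRA arrays than in any LE540 array. The 4 genes were named for passing in a comparison, so their number is no separate result. Of all probe sets, 0.603% passed in ATRA vs LE540 in either direction, and 5.24% had every ATRA array above every LE540 array. With only the ATRA and LE540 arrays fitted, Hgf, Fgf2 and Htra1 no longer passed (adjusted p = 0.255, 0.126 and 0.111 in limma). Groups of 3 arrays are too small to test for an outlying array.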

How the results depend on the processing

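All 5 members kept their direction in each comparison under every alternative run, with Serpinb2 absent where dim probe sets were left out. In many of these settings the log2 change could not move, so the kept direction there says nothing about stability. Such settings were the fit of only the arrays compared, both filters, the changed prior, the replicate block and 1 row per gene. Leaving out an array of neither group compared was another, and in all of them only the adjusted p could move. Of the members' values, 263 also kept their side of the threshold and 4 newly passed. These were Serpinf1 in ATRA vs DMSO with array weights (1.50) and without DMSO replicate 2, Plat in ATRA vs LE540 with the replicate block (0.92), and Plau in ATRA vs LE540 without LE540 replicate 3 (adjusted p = 0.0893 in limma), so that 1 member passed in each of those settings. With 1 array left out, Serpinf1 ranged from 1.21 to 1.64 in ATRA vs DMSO and Plau from 0.82 to 1.32 in ATRA vs LE540; members passing ranged from 0 to 1 in both comparisons. The replicate block changed no other member's call. The left-out ranges in ATRA vs DMSO were 0.15 to 0.57 for Plau (lowest without ATRA replicate 2), 0.31 to 0.63 for Plat (lowest without ATRA replicate 2) and 0.010 to 0.19 for Serpinb2 (lowest without ATRA replicate 3). In LE540 vs DMSO they were -0.95 to -0.52 for Plau, -0.55 to -0.28 for Plat and 0.17 to 0.47 for Serpinb2, and in ATRA vs LE540 -0.37 to -0.078 for Serpinb2.

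Counts over all probe sets were less stable. In ATRA vs DMSO 19 passed, against 9 with the 6 arrays compared, 71 with array weights, 29 with the replicate block (16 shared), 8 at 0.05 and 4 to 22 with 1 array left out (4 without DMSO replicate 1 or 3, 6 without ATRA replicate 1 or LE540 replicate 2, 10 without DMSO replicate 2 or LE540 replicate 3). In LE540 vs DMSO 7 passed, against 1 with the 6 arrays, 0 after quantile normalization, 0 with all rows tested, 1 with the replicate block, 13 with 1 row per gene, 0 at 0.05 and 0 to 297 with 1 array left out (0 without any DMSO replicate or ATRA replicate 3, 1 without ATRA replicate 2 or LE540 replicate 1, 12 without ATRA replicate 1, 98 without LE540 replicate 2, 297 without LE540 replicate 3). In ATRA vs LE540 141 passed, against 25 with the 6 arrays, 221 with the replicate block (122 shared), 60 at 0.05 and 54 to 278 with 1 array left out (54 to 73 without any 1 DMSO replicate, ATRA replicate 1 or 3, or LE540 replicate 1, and 278 and 273 without LE540 replicate 2 and 3). The test of any difference gave 67, and 24 to 144 with 1 array left out, a check added after seeing the data. Its lowest count came without DMSO replicate 1, its highest without LE540 replicate 2.

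Some list genes near 0 changed sign with 1 array left out: Vldlr (-0.23 to 0.024) and Mrc2 (-0.14 to 0.11) in ATRA vs DMSO, Serpini1 (-0.34 to 0.041) and Serpinb1a (-0.18 to 0.21) in LE540 vs DMSO, and Itgav (-0.23 to 0.35, -0.021 with array weights), Serpini1 (-0.28 to 0.10), Serpinb9b (-0.31 to 0.95) and Serpina3n (-0.29 to 0.27, -0.00374 with median centring) in ATRA vs LE540. The cause was not tested. Of list medians, 99 values moved by less than the replicate spread and 11 by more. The 99 include settings in which a median could not move: the replicate block, and leaving out an array of neither group compared.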
